A study of Mus musculus with 12 samples.

Results

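The 10 genes described here mark the endothelial cells of brain vessels and the barrier these cells form. They are Cldn5, Ocln, Tjp1, Cdh5, Pecam1, Flt1, Kdr, Tek, Ly6c1 and Abcb1a, taken by symbol from a deposited table of 15584 genes. All 10 were in the table, and all 10 were among the 13759 genes tested, which had at least 1 FPKM (a fragment count scaled by transcript length and by library size) in at least 3 libraries. The RNA came from mouse corpus callosum, the broad myelinated tract between the cerebral hemispheres, in 12 libraries that fall into 4 groups of 3. AHR CKO mice, in which microglia lack the aryl hydrocarbon receptor (AHR), were in the cuprizone model (AHR CKO CPZ) or served as its controls (AHR CKO Ctrl), and wild-type mice likewise gave WT CPZ and WT Ctrl. Cuprizone is a copper chelator that kills oligodendrocytes, so that the tract loses its myelin. Neither the labels nor the design text names the Cre line, the promoter that drives it, the cuprizone schedule, the sex or age of the animals, or whether each library is an animal of its own. P-values therefore measure the spread between these libraries, which may be technical in part.

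Brain endothelial cells seal the gaps between them with tight junctions, carry few vesicles and pump foreign compounds back into the blood, and together these features form the blood-brain barrier. In the tight junction, claudin 5 and occludin span the membrane and zonula occludens 1 (Tjp1) ties them to the actin skeleton. VE-cadherin (Cdh5) and PECAM1 hold endothelial cells together, VEGF and angiopoietin receptors govern vessel growth and stability, and P-glycoprotein (Abcb1a in rodent brain capillaries) is the main efflux pump. AHR is a ligand-activated transcription factor that, with its partner ARNT, binds sites with the core GCGTG. The series design gives microglia as the cells that lack it.

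Of the 10 genes, 3 were lower in AHR CKO CPZ than in WT CPZ tissue (Flt1, Tjp1 and Abcb1a), where 20% of all tested genes were called, and the same 3 were lower averaged over both treatments, where 33.7% were. None of the 3 calls under cuprizone held once a trend with transcript length and GC content was removed (adjusted p = 0.0858, 0.181 and 0.233 in limma). Cldn5 had its highest WT levels under cuprizone without passing the test. The stretch of 250 bases before the RefSeq transcription start of these 4 is shown because they are the genes the results turn on, and because AHR was the gene removed. The sequences are RefSeq's for GRCm38.p6, each read 5′ to 3′ on the gene's own strand, with matches to GCGTG on either strand in capitals. The windows are chr5:147726012-147726261 (minus strand) for Flt1, chr7:65371245-65371494 (minus strand) for Tjp1, chr5:8566841-8567090 (plus strand) for Abcb1a and chr16:18776597-18776846 (plus strand) for Cldn5.
Flt1: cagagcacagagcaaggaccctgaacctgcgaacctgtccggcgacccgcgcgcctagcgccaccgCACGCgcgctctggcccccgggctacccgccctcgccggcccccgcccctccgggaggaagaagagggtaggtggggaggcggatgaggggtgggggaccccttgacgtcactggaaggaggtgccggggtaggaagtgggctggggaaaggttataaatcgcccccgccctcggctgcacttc
Tjp1: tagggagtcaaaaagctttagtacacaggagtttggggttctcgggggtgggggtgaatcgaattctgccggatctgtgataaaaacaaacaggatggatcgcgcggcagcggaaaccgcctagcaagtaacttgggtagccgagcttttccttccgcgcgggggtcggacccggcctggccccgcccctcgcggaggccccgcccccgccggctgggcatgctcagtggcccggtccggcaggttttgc
Abcb1a: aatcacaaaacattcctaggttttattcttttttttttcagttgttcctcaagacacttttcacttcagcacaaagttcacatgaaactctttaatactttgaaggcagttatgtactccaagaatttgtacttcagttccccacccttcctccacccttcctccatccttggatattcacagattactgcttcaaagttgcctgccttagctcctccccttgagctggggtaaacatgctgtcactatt
Cldn5: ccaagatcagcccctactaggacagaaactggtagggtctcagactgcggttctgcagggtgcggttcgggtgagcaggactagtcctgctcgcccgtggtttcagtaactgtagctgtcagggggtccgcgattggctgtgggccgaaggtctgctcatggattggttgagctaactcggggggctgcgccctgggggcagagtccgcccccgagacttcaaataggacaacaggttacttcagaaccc
The Flt1 window held 1 match and the other 3 windows held none. RefSeq gave 10 such windows for 8 of the 10 genes, and GCGTG or its reverse complement was in 4 of them (Flt1, Kdr and both Ocln windows), against 28.2% of 32851 promoter windows of the same length. The core bound by ETS factors, AGGAAG on either strand, which can share an end base with GCGTG, was in 3 of the 10 windows and in 29.5% of all. A match is a description of letters and not a binding site. By GENCODE M21 (GRCm38), the Flt1 and Cldn5 windows end at the gene's annotated start. The Tjp1 window lies inside the annotated gene (chr7:65296165-65527781). The Abcb1a window ends at chr5:8567090 and does not adjoin the annotated gene (chr5:8660077-8748575). For these 2 genes the windows do not describe the bases before the GENCODE start.

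The members spanned a wide range of abundance. Averaged over the 12 libraries, Ly6c1, a GPI-anchored surface protein of mouse brain endothelium, stood highest at 56.9 FPKM. Cldn5 followed at 38.1, Tjp1 at 19.7, Flt1 at 7.96, Abcb1a at 7.69, Pecam1 at 6.83, Cdh5 at 4.04, Tek at 3.55, Ocln at 3.27 and Kdr at 2.39 FPKM. FPKM is scaled by transcript length, which allows levels of different genes to be set beside each other, but a trend with length remained between these libraries, as described further on, and Ly6c1 and Cldn5 are the shortest members. The order of Ly6c1, Cldn5, Tjp1 and Flt1 was the same in all 12 libraries, and Pecam1 was above Cdh5 in all 12. Neighbours in the middle were not separated, since Flt1 exceeded Abcb1a in 6 of 12 libraries and Abcb1a exceeded Pecam1 in 8 of 12. No member fell under 1 FPKM in any library, and the lowest single value was 1.80 FPKM, for Kdr in AHR CKO CPZ library 1 and for Ocln in AHR CKO CPZ library 2.

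**Figure D1:**
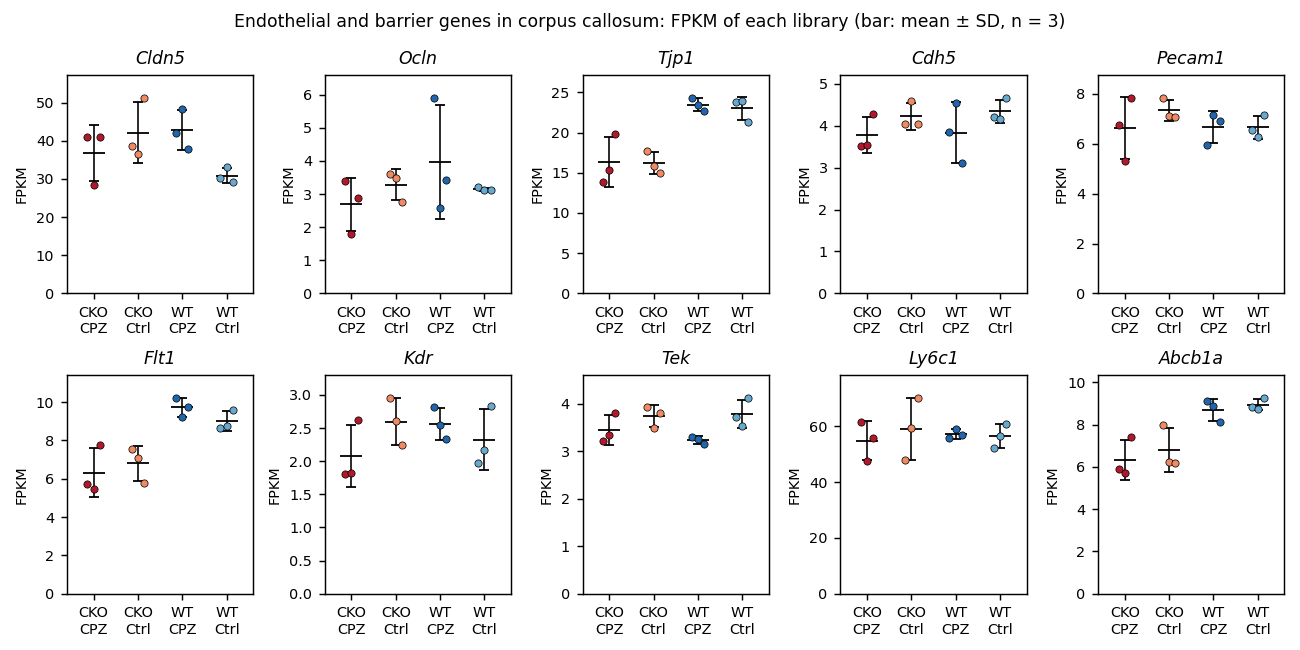
FPKM of each gene (vertical axes from 0) in every library, 1 point per library, with the group mean ± SD (n = 3) and the groups AHR CKO CPZ, AHR CKO Ctrl, WT CPZ and WT Ctrl from left to right. All 6 AHR CKO libraries lie below all 6 WT libraries for Flt1, Tjp1 and Abcb1a, and a single WT CPZ library at 5.90 FPKM stands above the others for Ocln. How many of all genes are separated in this way was not counted.

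A second set of 32 endothelial identity genes, chosen apart from the members, was in the table in full. Of these, 27 were at 1 FPKM or more in all 3 AHR CKO CPZ libraries, 30 in AHR CKO Ctrl, 29 in WT CPZ and 29 in WT Ctrl, so endothelial transcripts were present in every group. Their summed level was 782 to 951 FPKM in AHR CKO CPZ, 751 to 854 in AHR CKO Ctrl, 706 to 739 in WT CPZ and 630 to 675 in WT Ctrl libraries. The largest contributor was Bsg, which many cell types express. Some members are also made outside the endothelium, Tjp1 by glia and epithelia and Ocln by choroid plexus epithelium. The 8 astrocyte markers, led by Slc1a2, summed to 798 to 1130 FPKM in AHR CKO CPZ and 1200 to 1420 in WT CPZ libraries. Without cuprizone they summed to 705 to 871 FPKM in AHR CKO Ctrl and 916 to 1000 in WT Ctrl libraries. The part of astrocyte RNA in the Tjp1 values was not tested. In bulk tissue, fewer cells of a type and less RNA per cell cannot be told apart. Estimated from the lowest values in the table, libraries held about 11400000 to 14900000 fragments. That rough estimate put about 109 to 311 fragments behind an Ocln value and 1360 to 2220 behind a Tjp1 value. Total FPKM ran from 447156 to 519470, and the correlation of log2(FPKM + 1) over genes was 0.972 to 0.993 within groups and 0.932 to 0.983 between groups. Ahr itself had 1.48, 1.76 and 2.57 FPKM in AHR CKO CPZ, 1.79, 1.41 and 2.07 in AHR CKO Ctrl, 1.73, 1.85 and 2.01 in WT CPZ and 2.22, 1.48 and 1.65 in WT Ctrl libraries. These whole-tissue values do not check the genotype labels, because no source says which exons were deleted and other cells express the gene. Cx3cr1, a microglial marker, had 1.16, 22.7 and 29.6 FPKM in AHR CKO CPZ and 1.05, 9.6 and 0.801 in AHR CKO Ctrl libraries. In WT CPZ it had 69.4, 49.4 and 58.7 FPKM, and in WT Ctrl libraries 24.9, 24.4 and 22.6 FPKM. The AHR CKO libraries thus differed widely among themselves in Cx3cr1, and the reason was not tested.

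The first question was how far cuprizone altered vessel and barrier transcripts in WT tissue. Of the 10 members, 0 passed limma at an adjusted p under 0.05 (Benjamini-Hochberg over all genes tested), and 1, Cldn5, was under 0.05 before adjustment. In the same comparison 16.9% of all tested genes were called. The members' median log2 change was 0.02, against -0.04 over all genes. The widest 95% interval of a log2 change was that of Ocln (-0.27 to 0.69) and the narrowest that of Tek (-0.39 to 0.04).

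The tight junction genes differed in how they varied. Cldn5, the dominant claudin of brain endothelium, had 42.0, 48.4 and 37.9 FPKM in WT CPZ libraries, against 30.2, 33.0 and 29.3 FPKM in WT Ctrl libraries. All 3 WT CPZ values were above all 3 WT Ctrl values, a mean of 42.8 ± 5.30 against 30.9 ± 1.94 FPKM (SD, n = 3 each). The log2 change of 0.45 (95% interval 0.11 to 0.80) had an adjusted p of 0.0725 in limma and so did not pass. It passed with quantile normalization (adjusted p = 0.0287 in limma), in a fit to the WT groups alone (0.0303), and without AHR CKO Ctrl library 3 (0.0469) or AHR CKO CPZ library 2 (0.0362), and over the alternatives without a library left out it ranged up to 0.111. Ocln had 5.90, 2.58 and 3.43 FPKM in WT CPZ libraries, against 3.20, 3.11 and 3.11 FPKM in WT Ctrl libraries. Its spread in WT CPZ, a coefficient of variation of 43.5%, came from the single value of 5.90. Tjp1 had 24.3, 23.4 and 22.7 FPKM in WT CPZ libraries, against 23.8, 23.9 and 21.3 in WT Ctrl libraries, and the groups overlapped.

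The endothelial adhesion molecules overlapped between WT groups as well. Cdh5 had 3.84, 4.55 and 3.11 FPKM under cuprizone, against 4.21, 4.17 and 4.66 FPKM in WT Ctrl libraries. Pecam1 had 5.94, 7.14 and 6.93 FPKM under cuprizone, against 6.57, 6.27 and 7.17 FPKM in WT Ctrl libraries. Its log2 change was 0.00 with an interval of -0.27 to 0.27.
Among the receptors, Flt1 (VEGF receptor 1, which binds VEGF tightly and signals weakly) had 10.2, 9.23 and 9.75 FPKM in WT CPZ libraries, against 8.67, 8.73 and 9.59 FPKM in WT Ctrl libraries. Kdr, VEGF receptor 2 and the main signalling receptor for VEGF, had 2.82, 2.54 and 2.33 FPKM in WT CPZ, against 1.97, 2.17 and 2.84 FPKM in WT Ctrl. Both receptors overlapped between groups. Tek, the angiopoietin receptor TIE2, had 3.30, 3.26 and 3.15 FPKM in WT CPZ, against 3.72, 3.53 and 4.12 FPKM in WT Ctrl, so that the groups did not overlap. Its log2 change of -0.17 had an adjusted p of 0.264 in limma.
Ly6c1 had 55.8, 59.0 and 56.7 FPKM in WT CPZ libraries, against 52.1, 56.4 and 60.8 FPKM in WT Ctrl libraries. Abcb1a had 9.09, 8.86 and 8.11 FPKM in WT CPZ libraries, against 8.81, 8.75 and 9.24 FPKM in WT Ctrl libraries. Both overlapped between groups. Abcb1b, the paralog that encodes the other rodent P-glycoprotein, is near enough in sequence to share reads with Abcb1a, so both values are uncertain to that extent. It had 2.31, 2.53 and 2.05 FPKM in WT CPZ, against 1.33, 1.43 and 0.91 FPKM in WT Ctrl. Abcb1b rose (log2 change 0.57, adjusted p = 0.0193 in limma), while the far more abundant Abcb1a did not pass (log2 change -0.04, adjusted p = 0.869), and this difference between the paralogs was not tested. The Abcb1b call ended without 3 of the WT libraries in turn (adjusted p up to 0.0751) and with quantile normalization (0.0628).

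**Figure D2:**
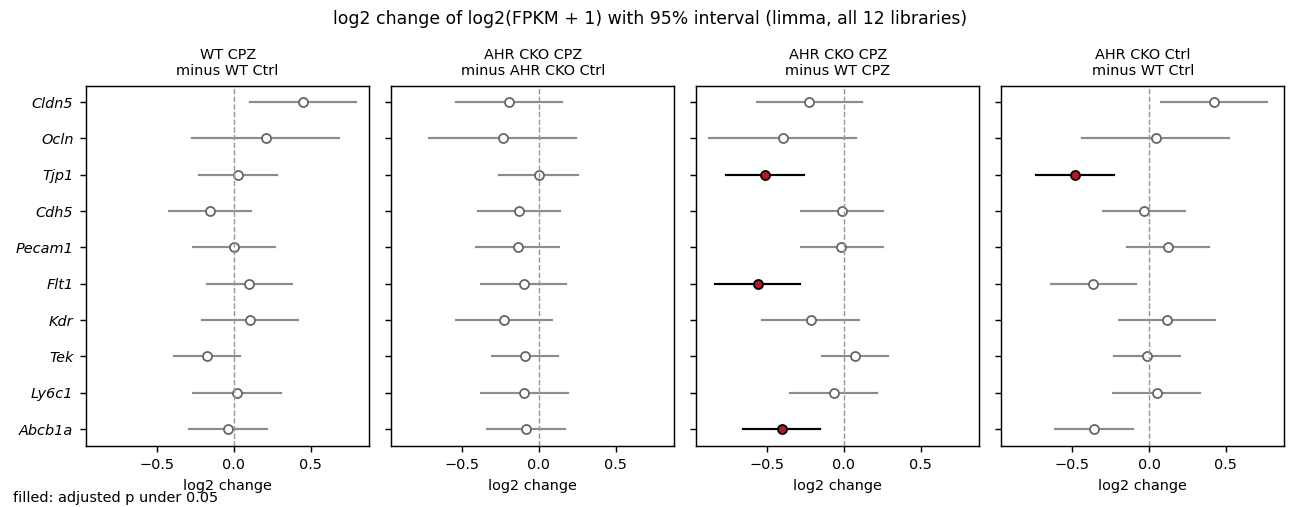
Log2 change of log2(FPKM + 1) for each gene (horizontal axis) with its 95% interval from the limma fit to all 12 libraries, in 4 comparisons. Filled points passed at an adjusted p under 0.05: none in either cuprizone comparison, 3 in AHR CKO CPZ minus WT CPZ (Tjp1, Flt1 and Abcb1a) and 1 in AHR CKO Ctrl minus WT Ctrl (Tjp1).

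The same question in AHR CKO tissue gave the same count. Of the 10 members, 0 passed limma for AHR CKO CPZ against AHR CKO Ctrl, and 0 were under 0.05 before adjustment, whereas 10.2% of all tested genes were called. All 10 log2 changes were below 0, between -0.24 (Ocln) and -0.00 (Tjp1), with a median of -0.11 against -0.01 over all genes. The groups overlapped for every member. Library AHR CKO CPZ 2 was low for several members, and on average its members lay 0.175 below their group means (log2), while library AHR CKO CPZ 3 lay 0.179 above. Cldn5 had 41.1, 28.3 and 40.9 FPKM in AHR CKO CPZ, against 38.5, 36.5 and 51.2 FPKM in AHR CKO Ctrl libraries. Ocln had 3.38, 1.80 and 2.88 FPKM in AHR CKO CPZ, against 3.61, 3.48 and 2.76 FPKM in AHR CKO Ctrl libraries. In both genes the lowest AHR CKO CPZ value was that of library 2. Kdr had 1.80, 1.82 and 2.62 FPKM in AHR CKO CPZ, against 2.95, 2.60 and 2.24 FPKM in AHR CKO Ctrl libraries, and here library 3 alone reached into the control range. Ly6c1 had 61.4, 47.5 and 55.7 FPKM in AHR CKO CPZ, against 47.9, 59.3 and 70.0 FPKM in AHR CKO Ctrl libraries. Pecam1 (6.74, 5.33 and 7.84 against 7.84, 7.10 and 7.08 FPKM in AHR CKO Ctrl), Cdh5 (3.52, 3.54 and 4.27 against 4.04, 4.59 and 4.04) and Tek (3.21, 3.34 and 3.81 against 3.94, 3.50 and 3.80) overlapped in the same way.

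Whether the response to cuprizone differed between genotypes was tested as an interaction. None of the 10 members passed limma (0 of 10, 1 under 0.05 before adjustment), and 0.0363% of all genes did. The member under 0.05 before adjustment was Cldn5, whose log2 change under cuprizone was 0.45 in WT and -0.19 in AHR CKO tissue, a difference of -0.65 with a 95% interval of -1.13 to -0.16. Its adjusted p was 0.368 in limma. Averaged over genotypes, cuprizone changed 0 of the 10 members by limma, with 0 under 0.05 before adjustment, and 23.2% of all genes were called.

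The second question was how AHR CKO tissue differed from WT tissue. Under cuprizone, 3 members were lower and none higher in AHR CKO CPZ than in WT CPZ, in a comparison that called 20% of all genes. The count of 3 of 10 is therefore not far from the share of all genes, and it names the genes rather than setting the members apart. Flt1, Tjp1 and Abcb1a also had their AHR CKO Ctrl values below every WT Ctrl value, and Cldn5 had its values above. How many of all genes lacked overlap was not counted, for these groups or for any others compared here. Lack of overlap therefore does not set a gene apart from the rest of the table. Of the 10 members, 1, Tjp1, was lower in AHR CKO Ctrl than in WT Ctrl, where 6.19% of all genes were called. Averaged over both treatments, the same 3 members were lower and none higher, and 33.7% of all genes were called.

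Tjp1 had 13.8, 15.3 and 19.8 FPKM in AHR CKO CPZ libraries, against 24.3, 23.4 and 22.7 FPKM in WT CPZ libraries. Without cuprizone it had 17.7, 15.9 and 15.0 FPKM in AHR CKO Ctrl, against 23.8, 23.9 and 21.3 FPKM in WT Ctrl libraries. No AHR CKO library reached the lowest WT library. Tjp1 fell by 30.5% in AHR CKO CPZ (16.3 ± 3.15 against 23.5 ± 0.801 FPKM, SD, n = 3 each) and by 29.6% in AHR CKO Ctrl, where it was 16.2 ± 1.37 against 23.0 ± 1.43 FPKM. The log2 changes were -0.51 (adjusted p = 0.014 in limma) and -0.48 (adjusted p = 0.0387).
Flt1 had 5.71, 5.47 and 7.78 FPKM in AHR CKO CPZ libraries, against 10.2, 9.23 and 9.75 FPKM in WT CPZ libraries. It fell by 35%, with a log2 change of -0.56 and an adjusted p of 0.0133 in limma. In AHR CKO Ctrl libraries it had 7.54, 7.09 and 5.77 FPKM, against 8.67, 8.73 and 9.59 FPKM in WT Ctrl libraries. These groups did not overlap either, but the log2 change of -0.36 did not pass (adjusted p = 0.096).
Abcb1a had 5.90, 5.69 and 7.42 FPKM in AHR CKO CPZ libraries, against 9.09, 8.86 and 8.11 FPKM in WT CPZ libraries. It fell by 27.1%, with a log2 change of -0.41 and an adjusted p of 0.0303 in limma. In AHR CKO Ctrl libraries it had 7.98, 6.21 and 6.17 FPKM, against 8.81, 8.75 and 9.24 FPKM in WT Ctrl libraries (log2 change -0.36, adjusted p = 0.0793). Averaged over both treatments, the log2 changes were -0.50 for Tjp1 (adjusted p = 0.00206 in limma), -0.46 for Flt1 (0.00369) and -0.38 for Abcb1a (0.00566).
Without AHR CKO CPZ library 1 the calls under cuprizone ended for Flt1 (adjusted p = 0.0577 in limma), Tjp1 (0.0587) and Abcb1a (0.109), and that of Abcb1a also ended without AHR CKO CPZ library 2 (0.0994) and WT CPZ library 1, 2 or 3 (0.0578 to 0.0921). The Tjp1 call in control tissue ended without any of 6 libraries (WT Ctrl 1 and 2, WT CPZ 3, AHR CKO Ctrl 2 and 3, and AHR CKO CPZ 2, with an adjusted p of 0.0567 to 0.148), whereas the averaged calls held without each library in turn.

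The other 7 members did not pass under cuprizone. Cldn5 had 41.1, 28.3 and 40.9 FPKM in AHR CKO CPZ, against 42.0, 48.4 and 37.9 FPKM in WT CPZ libraries. Without cuprizone the order was the other way, with 38.5, 36.5 and 51.2 FPKM in AHR CKO Ctrl, against 30.2, 33.0 and 29.3 FPKM in WT Ctrl libraries. The control groups did not overlap, and the log2 change of 0.42 had an adjusted p of 0.115 in limma. Ocln averaged 2.69 ± 0.806 FPKM in AHR CKO CPZ, against 3.97 ± 1.73 FPKM in WT CPZ libraries (SD, n = 3 each). Pecam1, Cdh5, Tek and Ly6c1 had log2 changes between -0.07 and 0.07 under cuprizone, and the widest of their 95% intervals was -0.35 to 0.22, for Ly6c1. Kdr had a log2 change of -0.22 under cuprizone and 0.12 without it, with an interval that spanned 0 in both.

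Within a functional class, Flt1 was lower in AHR CKO and Kdr did not pass, and Tjp1 was lower and Ocln did not pass. These differences between members were not tested.

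The 3 lower genes have long transcripts, and transcript length itself went with genotype across the table. By GENCODE M21 the transcript lengths of the members are 7049 nt for Tjp1, 6895 for Flt1, 5924 for Kdr, 4997 for Abcb1a, 4654 for Tek, 4052 for Ocln, 3995 for Cdh5, 3441 for Pecam1, 1416 for Cldn5 and 844 nt for Ly6c1. When the 13123 tested genes with a length were cut into 4 bins of equal size from shortest to longest, the median log2 change of AHR CKO against WT, averaged over treatments, was 0.22, 0.04, -0.07 and -0.24. In the longest bin, of 4717 nt or more, 48.8% of genes were called lower in AHR CKO and 1.43% higher, against 2.29% lower and 37.4% higher in the shortest. Under cuprizone 29.4% of the longest bin was lower in AHR CKO.
A smooth trend on length and GC content was then removed from each library, a step chosen after seeing the data. Length and GC content were removed together and not apart, and mentions below of the length trend removed mean both. The changes under cuprizone became -0.30 for Flt1 (adjusted p = 0.0858 in limma), -0.20 for Tjp1 (0.181) and -0.20 for Abcb1a (0.233), and none of them passed. Averaged over treatments, Tjp1 was at -0.21 and still passed (0.0481), while Flt1 (-0.23, 0.0543) and Abcb1a (-0.18, 0.11) did not. On this scale Cldn5 was lower in AHR CKO CPZ than in WT CPZ (log2 change -0.61, adjusted p = 0.0278 in limma), and Kdr stood at 0.01. Cldn5 has a short transcript and, at 60.5%, the highest GC content of the members. The call of each of the 3 genes as lower in AHR CKO thus depended on whether the length and GC trends were removed, Tjp1 excepted in the average over treatments. What makes these trends was not tested.

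**Figure D3:**
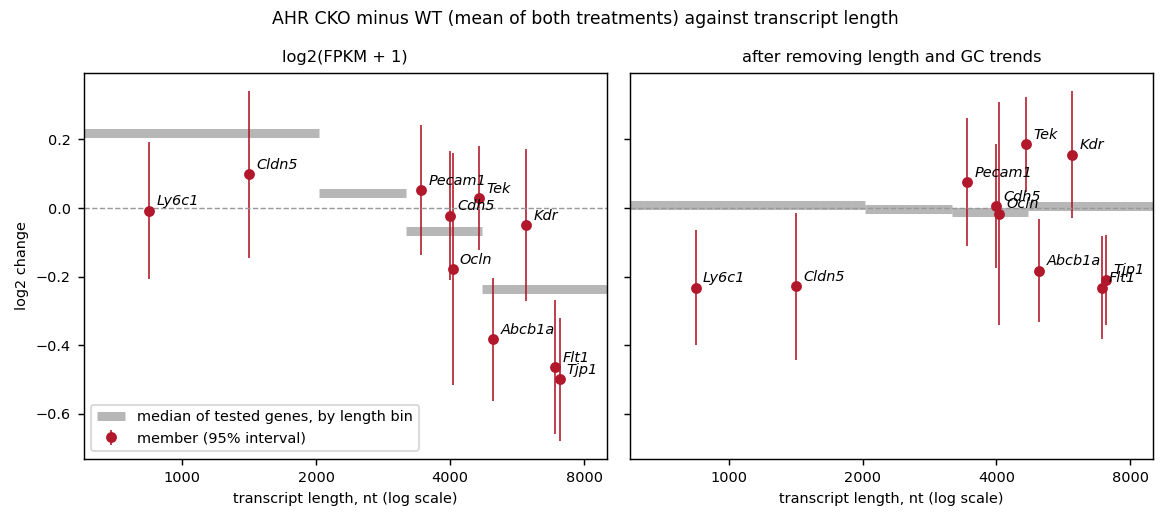
Log2 change of AHR CKO minus WT, averaged over both treatments, against transcript length (log axis), before (left) and after (right) the trends on length and GC content were removed. Points are the 10 genes with 95% intervals and grey bars are medians of the tested genes in each length bin, which run from 0.22 to -0.24 on the left and lie near 0 on the right. Tjp1, Flt1 and Abcb1a move towards 0, and Ly6c1 and Cldn5 move below it.

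Within groups the members varied together to different degrees. Over the 45 pairs of members, the correlation of their deviations from the group means (12 libraries, log2 scale) had a median of 0.366 and was above 0 in 37 pairs. It was highest for Flt1 and Kdr (0.875), Flt1 and Abcb1a (0.815), and Kdr and Abcb1a (0.814), and lowest for Ly6c1 and Tjp1 (-0.452). Cldn5 and Ly6c1, the short transcripts, went together at 0.692. The points share libraries and their length trend, so these values describe the libraries and carry no test. The genes outside the set whose log2 levels followed the members' mean standardised level most closely over the 12 libraries were Rnf111 (Pearson r = 0.858), Eltd1 (0.84), Slc16a14 (0.83), Vezt (0.823) and Fitm2 (0.808). Eltd1, also named Adgrl4, encodes an adhesion receptor of endothelium. It had 4.78, 3.76 and 5.90 FPKM in AHR CKO CPZ, 6.29, 5.62 and 4.66 in AHR CKO Ctrl, 5.86, 5.61 and 6.12 in WT CPZ and 6.22, 5.88 and 7.14 FPKM in WT Ctrl libraries.

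Around the members, 9 lists of vascular genes described the rest of the barrier and vessel wall. Their counts are set beside the shares of all tested genes called in the same comparison, and no test of a list as a whole was run. The median log2 change of all tested genes was -0.01 in AHR CKO CPZ against AHR CKO Ctrl, -0.04 in WT CPZ against WT Ctrl and 0.00 in AHR CKO CPZ against WT CPZ. Of 17 tested partners of tight and adherens junctions, 0 passed limma in AHR CKO CPZ against AHR CKO Ctrl (10.2% of all genes), and 1 was higher and 1 lower in WT CPZ against WT Ctrl (16.9%). Their median log2 changes were -0.01 and 0.12. Averaged over genotypes, 2 were higher and 3 lower with cuprizone, where 23.2% of all genes were called. F11r, junctional adhesion molecule A, had 13.6, 9.61 and 11.4 FPKM in WT CPZ, against 3.10, 5.29 and 3.91 FPKM in WT Ctrl libraries, and rose with a log2 change of 1.31 (adjusted p = 0.00164 in limma). It is also made by microglia and other leukocytes. Jam3 fell in WT CPZ to 27.6, 34.1 and 31.3 FPKM, against 59.7, 73.2 and 39.7 FPKM in WT Ctrl libraries (log2 change -0.83, adjusted p = 0.00615 in limma). The 6 oligodendrocyte markers, given further on, were lower in WT CPZ too, and their part in the Jam3 values was not tested. Mllt4, which encodes the actin-binding junction protein afadin, was lower in AHR CKO than in WT with cuprizone (-0.36, adjusted p = 0.0239 in limma) and without it (-0.40, adjusted p = 0.0373). The Mllt4 calls ended in 4 and 7 of 12 fits that left out a library (adjusted p up to 0.0925 with cuprizone).

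Of 20 tested transporters of the barrier, 4 were higher in AHR CKO CPZ and 16 did not pass (10.2% of all genes called), and 4 were higher and 1 lower in WT CPZ and 15 did not pass (16.9%), each against its controls. The median log2 changes of the list were -0.01 and 0.13. Slc7a5 and Slc3a2 encode the light and heavy chains of LAT1, the large neutral amino acid transporter. Slc7a5 had 45.7, 53.6 and 65.8 FPKM in AHR CKO CPZ, against 24.5, 25.3 and 24.6 FPKM in AHR CKO Ctrl, and 38.3, 41.8 and 41.7 FPKM in WT CPZ, against 26.1, 24.7 and 23.4 FPKM in WT Ctrl libraries. The treated and control groups were apart in both genotypes, with log2 changes of 1.10 (adjusted p = 6.42e-05 in limma) and 0.69 (0.000884). Slc3a2 rose by 1.06 in AHR CKO (adjusted p = 9.74e-05 in limma) and by 0.85 in WT tissue (0.000223) on the log2 scale. Both LAT1 genes were also higher in AHR CKO CPZ than in WT CPZ, Slc7a5 by 0.42 (adjusted p = 0.0246 in limma) and Slc3a2 by 0.41 (0.0277), calls that ended in 3 and 4 of 12 fits that left out a library (up to 0.0825) and with the length trend removed (0.0618 and 0.0758). Slco2b1, an organic anion transporter also made by microglia, rose by 0.80 in AHR CKO (adjusted p = 0.0137 in limma) and by 1.18 in WT tissue (0.000615). The Slco2b1 call in AHR CKO ended without AHR CKO Ctrl library 2 (0.0551) or AHR CKO CPZ library 3 (0.0524). Tfrc, the transferrin receptor, fell in WT CPZ to 21.3, 26.3 and 23.6 FPKM, against 34.2, 33.0 and 32.3 FPKM in WT Ctrl libraries (log2 change -0.47, adjusted p = 0.00332 in limma). With the length trend removed it was at -0.35 and did not pass (0.0731).

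Of 31 tested identity genes, 0 passed limma in AHR CKO CPZ against AHR CKO Ctrl (10.2% of all genes) and 2 were higher in WT CPZ than in WT Ctrl (16.9%), with median log2 changes of 0.01 and 0.00. Fli1, an ETS transcription factor of endothelium that microglia also make, was among them (log2 change 0.74, adjusted p = 0.00873 in limma). Between genotypes, 4 were higher in AHR CKO CPZ than in WT CPZ (20% of all genes called) and 2 in AHR CKO Ctrl than in WT Ctrl (6.19%), and none was lower in either comparison. Averaged over treatments, 5 were higher and 3 lower in AHR CKO, where 14.5% of all genes were called higher and 19.1% lower. Pltp, the phospholipid transfer protein, had 88.3, 69.2 and 95.3 FPKM in AHR CKO CPZ, against 58.4, 42.6 and 47.9 FPKM in WT CPZ libraries (log2 change 0.75, adjusted p = 0.00797 in limma). Bsg (0.42, adjusted p = 0.0256) and Ly6a (0.47, adjusted p = 0.0465) were also higher under cuprizone by limma, calls that ended in 3 and 8 of 12 fits that left out a library. In control tissue Pltp (0.53, adjusted p = 0.0492 in limma) and Bsg (0.55, adjusted p = 0.0307) were higher in AHR CKO, calls that ended in 8 and 5 of 12 fits that left out a library. After removal of the length trend none of Pltp (0.0537), Bsg (0.442) and Ly6a passed under cuprizone.
In the VEGF, angiopoietin and guidance list, 14 genes were tested, of which 2 were lower in AHR CKO CPZ (10.2% of all genes called) and 3 were higher and 2 lower in WT CPZ (16.9%), each against its controls. Their median log2 changes were 0.02 and 0.10. Unc5b, a netrin receptor of sprouting vessels that is also made by oligodendrocytes, fell to 6.75, 6.50 and 7.00 FPKM in AHR CKO CPZ, against 18.9, 16.0 and 15.0 FPKM in AHR CKO Ctrl libraries. In WT CPZ it fell to 4.68, 7.02 and 6.03 FPKM, against 27.0, 26.8 and 18.3 FPKM in WT Ctrl libraries (log2 change -1.85, adjusted p = 1.2e-05 in limma). Its fall went with that of the 6 oligodendrocyte markers, which summed to 3930 to 4840 FPKM in AHR CKO CPZ, against 8920 to 9520 in AHR CKO Ctrl, and 2980 to 3580 FPKM in WT CPZ, against 9250 to 16800 in WT Ctrl libraries. Their part in the result was not tested. Nrp1 and Nrp2, co-receptors for VEGF and semaphorins, rose in WT CPZ by 0.89 (adjusted p = 0.00156 in limma) and 1.08 (0.00674), and Angpt1, the activating ligand of TIE2, rose by 0.93 (0.00211). Nrp1 was lower in AHR CKO CPZ than in WT CPZ (log2 change -0.65, adjusted p = 0.017), a call that ended in 4 of 12 fits that left out a library (up to 0.0668).

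Endothelial Wnt signalling maintains the barrier. Of 18 genes of that pathway tested, 1 was lower in AHR CKO CPZ than in AHR CKO Ctrl (10.2% of all genes called), and 5 were higher and 1 lower in WT CPZ than in WT Ctrl (16.9%). Their median log2 changes were 0.05 and 0.20. Nkd1, a feedback inhibitor of Wnt signalling, fell by 0.44 in AHR CKO CPZ (adjusted p = 0.0321 in limma) and fell by 0.89 in WT CPZ (0.000189) on the log2 scale. The call in AHR CKO ended without any 1 of the 6 AHR CKO libraries (up to 0.114). Wnt7b, a ligand made by neural cells, rose in WT CPZ (0.51, adjusted p = 0.00295 in limma), as did Tnfrsf19 (0.57, 0.0124), whose call ended without WT CPZ library 3 (0.0516). Lrp6, a Wnt co-receptor with a long transcript, was lower in AHR CKO CPZ than in WT CPZ (-0.57, adjusted p = 0.0125 in limma), but not without AHR CKO CPZ library 1 (0.0538) and not with the length trend removed (-0.18, 0.223).
Of 9 tested genes of endothelial activation, 3 were higher in AHR CKO CPZ (10.2% of all genes called) and 2 in WT CPZ (16.9%), each against its controls, with median log2 changes of 0.37 and 0.29. Icam1, the leukocyte adhesion molecule, had 5.94, 8.79 and 10.7 FPKM in AHR CKO CPZ, against 2.12, 2.14 and 2.10 FPKM in AHR CKO Ctrl libraries. In WT CPZ it had 6.88, 3.56 and 4.91 FPKM, against 1.29, 1.27 and 1.41 FPKM in WT Ctrl libraries. It rose by 1.57 in AHR CKO (adjusted p = 0.000318 in limma) and by 1.36 in WT tissue (0.000513). Microglia make Icam1 too, and the 9 microglial markers summed to 747 to 1190 FPKM in AHR CKO CPZ, against 266 to 286 in AHR CKO Ctrl, and 1140 to 1660 FPKM in WT CPZ, against 300 to 337 in WT Ctrl libraries. Icam1 was higher in AHR CKO CPZ than in WT CPZ by 0.64 (adjusted p = 0.045), a call that ended in 10 of 12 fits that left out a library. The part of microglial RNA in the rises of Icam1, F11r, Slco2b1 and Fli1 was not tested. Nor was it tested which cells gave the rises of Slc7a5 and Slc3a2. Upp1 rose by 1.18 in AHR CKO (adjusted p = 0.00479 in limma) and by 1.14 in WT tissue (0.00355).

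Plvap forms the diaphragms of leaky capillaries and is scarce in vessels with a tight barrier. It had 11.3, 7.81 and 8.50 FPKM in AHR CKO CPZ, against 4.04, 4.86 and 3.87 FPKM in WT CPZ libraries, and the groups did not overlap. The log2 change was 0.95 (adjusted p = 0.00339 in limma), and it remained past the threshold without each library in turn and with the length trend removed (0.65, adjusted p = 0.0117). In AHR CKO Ctrl it had 6.03, 6.84 and 6.37 FPKM, against 4.03, 4.57 and 4.59 FPKM in WT Ctrl libraries (log2 change 0.46, adjusted p = 0.054). Against AHR CKO Ctrl, Plvap was higher in AHR CKO CPZ by 0.45 (adjusted p = 0.0463 in limma), a call that ended in 10 of 12 fits that left out a library. Vessels of the choroid plexus are of the leaky kind, and choroid plexus transcripts varied widely between libraries. The 13 choroid plexus markers, all in the table, summed to 3790, 1020 and 2880 FPKM in AHR CKO CPZ, 1920, 3650 and 425 in AHR CKO Ctrl, 3030, 59.6 and 1010 in WT CPZ and 46.7, 165 and 97.1 FPKM in WT Ctrl libraries, most of it Ttr. None of the 13 passed limma in any of the 4 pairwise comparisons, and no library had a sum of 0. Averaged over treatments, 4 were higher in AHR CKO, in a comparison that called 14.5% of all genes higher. Library WT CPZ 1, with 3030 FPKM of these markers, had 4.04 FPKM of Plvap and the highest Ocln value, 5.90 FPKM. The libraries with the highest sums, AHR CKO CPZ 1 (3790) and AHR CKO Ctrl 2 (3650), had 11.3 and 6.84 FPKM of Plvap. Their Ocln values were 3.38 and 3.48 FPKM. The WT Ctrl libraries, with sums of 46.7 to 165, had 4.03 to 4.59 FPKM of Plvap and 3.11 to 3.20 FPKM of Ocln. Fibroblast markers, 9 in the table, summed to 57.6 to 111 FPKM in AHR CKO CPZ, 68.9 to 106 in AHR CKO Ctrl, 47.0 to 78.7 in WT CPZ and 36.5 to 49.0 FPKM in WT Ctrl libraries. Of the 8 tested, 7 were higher in AHR CKO averaged over treatments, against 14.5% of all genes. The part of either cell type in the Plvap or Ocln values was not tested.

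**Figure D4:**
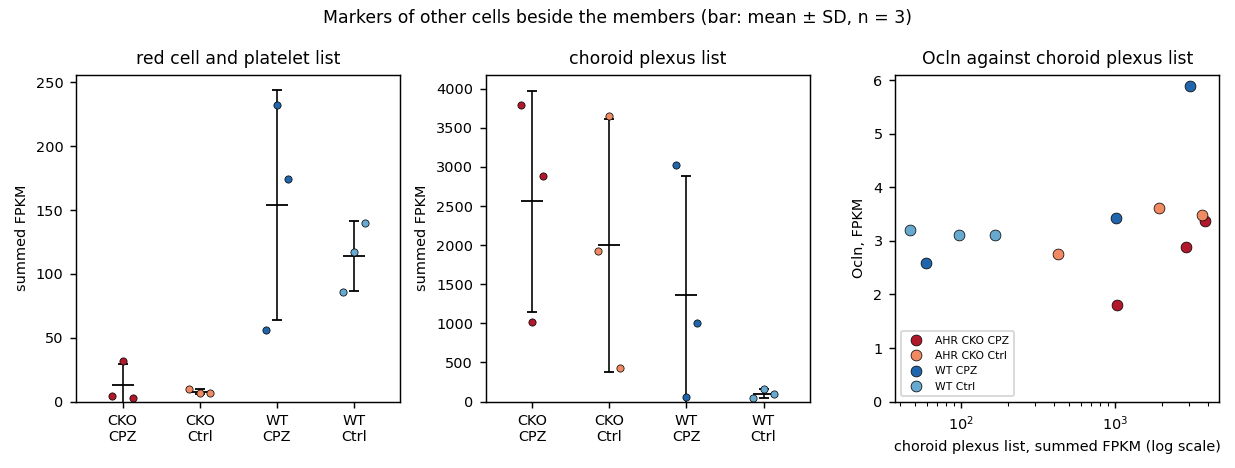
Summed FPKM of red cell and platelet genes (left) and choroid plexus markers (middle) in every library with group mean ± SD (n = 3), and Ocln against the choroid plexus sum (right, log horizontal axis). Blood cell sums were 2.80 to 32.1 FPKM in the AHR CKO libraries and 55.7 to 232 FPKM in the WT libraries, and the 2 libraries with the highest choroid plexus sums (3790 and 3650 FPKM) had 3.38 and 3.48 FPKM of Ocln, below the highest Ocln value of 5.90 FPKM in WT CPZ 1, whose sum was 3030 FPKM.

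Caveolae are the vesicles that brain endothelium keeps few of. Of 8 caveolar genes tested, 2 were higher in AHR CKO CPZ and 6 did not pass (10.2% of all genes called), and 2 were higher and 1 lower in WT CPZ and 5 did not pass (16.9%), each against its controls. Between genotypes, 1 was higher in AHR CKO CPZ than in WT CPZ (20%). Ehd4, an endocytic ATPase, had 8.42, 10.4 and 11.4 FPKM in AHR CKO CPZ, against 5.33, 5.52 and 4.23 FPKM in AHR CKO Ctrl libraries, and rose by 0.88 in AHR CKO (adjusted p = 0.000656 in limma) and by 1.10 in WT tissue (7.4e-05). Sdpr (cavin 2) fell by 0.79 in WT CPZ (adjusted p = 0.00168 in limma). Cav1, the caveolar coat protein, was higher in WT CPZ by 0.65 (adjusted p = 0.041), a call that ended in 9 of 12 fits that left out a library. Prkcdbp (cavin 3) was higher in AHR CKO CPZ than in WT CPZ by 0.58 (adjusted p = 0.0256 in limma), a call that ended in 4 of 12 such fits (up to 0.0913).

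Pericytes and smooth muscle cells wrap the endothelium. Of 15 mural genes tested, 4 were higher and 1 lower in AHR CKO CPZ than in WT CPZ, where 9.14% of all genes were called higher and 10.8% lower. The list's median log2 change was 0.22. In AHR CKO Ctrl against WT Ctrl 1 was higher (6.19% of all genes called), and in WT CPZ against WT Ctrl 2 were lower (16.9%). Vtn, the vitronectin of brain pericytes, had 68.7, 57.5 and 68.5 FPKM in AHR CKO CPZ, against 33.0, 36.5 and 35.3 FPKM in WT CPZ libraries. In AHR CKO Ctrl it had 58.2, 53.0 and 72.3 FPKM, against 41.8, 46.1 and 44.6 FPKM in WT Ctrl libraries. Every AHR CKO library was above every WT library. The change under cuprizone was 0.87 (adjusted p = 0.00283 in limma) and held without each library in turn and with the length trend removed (0.63, 0.00635), while that in control tissue (0.45, 0.0424) ended in 8 of 12 fits that left out a library. Kcnj8, a pericyte potassium channel subunit, had 3.42, 3.82 and 3.70 FPKM in AHR CKO CPZ, against 1.27, 1.71 and 2.02 FPKM in WT CPZ libraries. It rose by 0.81 (adjusted p = 0.00593 in limma), again without each library in turn and with the length trend removed (0.71, 0.0148). Ndufa4l2 rose by 0.77 under cuprizone (adjusted p = 0.00387), but not with the length trend removed (0.36, 0.10). Rgs5, another pericyte gene, went the other way with 11.4, 16.6 and 21.2 FPKM in AHR CKO CPZ, against 30.7, 27.2 and 29.6 FPKM in WT CPZ libraries (log2 change -0.83, adjusted p = 0.0229 in limma). Its call ended without WT CPZ library 1 or 3 or AHR CKO CPZ library 1 or 2 (up to 0.0964). In WT CPZ against WT Ctrl, Kcnj8 fell (-0.56, adjusted p = 0.0142 in limma), as did Ndufa4l2 (-0.40, 0.0315), calls that ended in 2 and 5 of 12 fits that left out a library. None of the 15 passed as an interaction.
Of 14 genes of the basal lamina, the sheet that vessels rest on, 1 rose with cuprizone in AHR CKO (10.2% of all genes called), and 1 rose and 1 fell in WT tissue (16.9%). Fn1, fibronectin, had 7.71, 9.06 and 17.9 FPKM in AHR CKO CPZ, against 5.10, 4.18 and 5.46 FPKM in AHR CKO Ctrl, and 17.4, 8.81 and 11.4 FPKM in WT CPZ, against 4.90, 5.15 and 5.68 FPKM in WT Ctrl libraries. It rose by 1.01 in AHR CKO (adjusted p = 0.0322 in limma) and by 1.07 in WT tissue (0.0153), calls that ended in 4 and 2 of 12 fits that left out a library (up to 0.12 in AHR CKO). Lamc1, the laminin gamma 1 chain, fell by 0.38 in WT CPZ (adjusted p = 0.0375), a call that ended in 6 of 12 such fits.

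**Figure D5:**
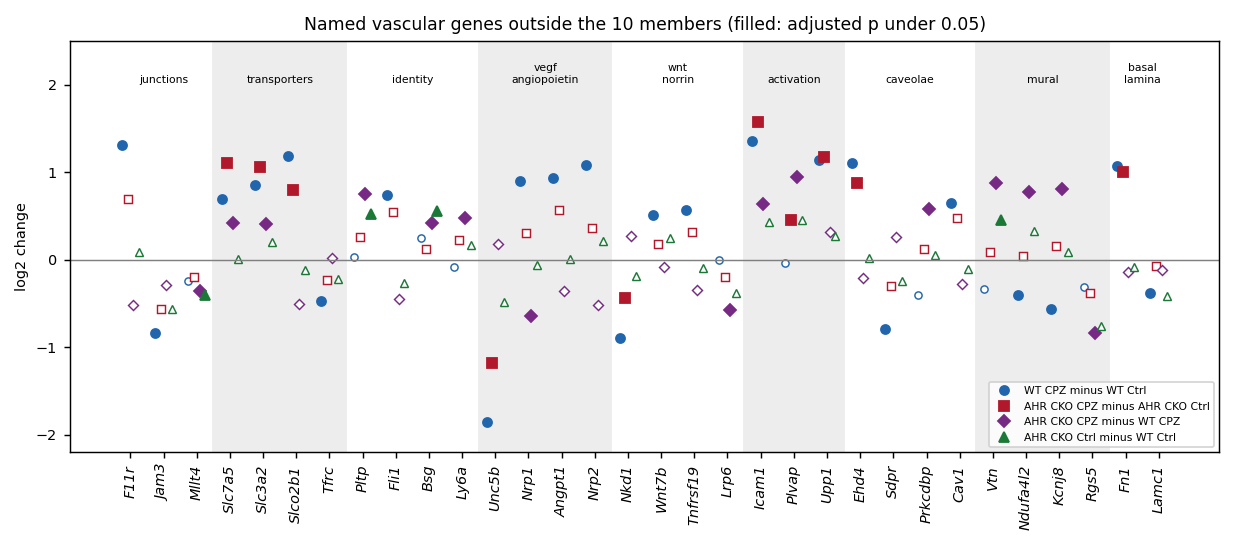
Log2 change of the named genes of 9 vascular lists (vertical axis) in 4 comparisons, with filled symbols past an adjusted p of 0.05 in limma. Icam1, Slc7a5, Slc3a2 and Ehd4 are filled for cuprizone in both genotypes, and Plvap, Vtn and Kcnj8 are filled for AHR CKO CPZ minus WT CPZ.

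Red cell transcripts differed with genotype. Of 8 red cell and platelet genes, 5 were in the table, and they summed to 4.55, 32.1 and 2.80 FPKM in AHR CKO CPZ, 9.96, 6.36 and 6.88 in AHR CKO Ctrl, 55.7, 232 and 174 in WT CPZ and 85.5, 117 and 140 FPKM in WT Ctrl libraries. Hba-a1, an alpha globin gene of red cells, had 3.15, 28.4 and 0.827 FPKM in AHR CKO CPZ, against 30.7, 210 and 132 FPKM in WT CPZ libraries. All AHR CKO CPZ values were below all WT CPZ values. Of 4 tested blood genes, 3 (Hba-a1, Hba-a2 and Alas2, a haem synthesis enzyme of red cell precursors) were lower in AHR CKO by limma, both under cuprizone (adjusted p = 0.0115, 0.00118 and 0.0068) and in control tissue (0.031, 0.012 and 0.0279). In these comparisons 10.8% and 4.76% of all genes were called lower. The blood genes were added after their values were seen, so their count and p-values describe these libraries and are no independent test. Hba-a1 and Hba-a2 are near-identical copies, so the split of reads between them is uncertain. Alas2 was listed at 0 in 5 of the 6 AHR CKO libraries and had 0.762 to 2.77 FPKM in WT libraries. The summed level is led by Hba-a1, and platelet genes are given apart. Pf4, a platelet gene that macrophages also make, had 0.764, 2.43 and 1.05 FPKM in AHR CKO CPZ, 3.02, 2.15 and 2.24 in AHR CKO Ctrl, 2.40, 1.16 and 1.08 in WT CPZ and 0.585, 1.18 and 1.11 FPKM in WT Ctrl libraries, and did not pass. Itga2b, too low to be tested, averaged 0.798 FPKM in AHR CKO CPZ, against 0.487 FPKM in WT CPZ libraries. Without AHR CKO CPZ library 1 the Hba-a1 call under cuprizone ended (0.0511), and in control tissue the calls of all 3 ended without AHR CKO Ctrl library 2 or 3, among others (up to 0.121). Under cuprizone the blood cell sum, Flt1, Tjp1 and Abcb1a were lower in AHR CKO than in WT tissue. Plvap, Vtn and Kcnj8 were higher in that comparison. The part of red cell content in the values of the vessel genes was not tested.
Of infiltrating leukocyte markers, 4 of 10 were in the table, with a summed level of 2.45 to 5.36 FPKM in AHR CKO CPZ, against 1.91 to 2.96 in AHR CKO Ctrl, and 4.21 to 5.09 FPKM in WT CPZ, against 1.36 to 2.96 FPKM in WT Ctrl libraries. Of the 2 tested, 1 was higher with cuprizone averaged over genotypes (23.2% of all genes called) and 0 passed limma in the 4 pairwise comparisons. Ly6c2, a monocyte gene that is a near copy of Ly6c1, had at most 2.42 FPKM in any library, and it passed in none of the 4 pairwise comparisons. Ly6c1 had 47.5 to 70.0 FPKM over the same libraries, and reads that the copies share leave both values uncertain.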

How the data were processed

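Per the labels' protocols, total RNA of corpus callosum was purified on Qiagen RNeasy columns and sequenced from SMARTER mRNA-Seq libraries. What the authors deposited is a single FPKM table with gene symbols and 12 sample columns, per the file headers. Reads were placed on GRCm38 (mm10), per the submitters' processing notes, and neither the aligner and quantifier nor the annotation and filters are stated there. FPKM scales by transcript length, yet libraries can still differ in a trend with length. Whether counting used strand is unstated, and Cdh5, Tjp1 and Abcb1a overlap other annotated genes.

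Genes at 1 FPKM or more in at least 3 of 12 libraries (13759, 88.29%) were fitted as log2(FPKM + 1) with limma 3.58.1 in R 4.3.3 (4 groups, all 12 libraries, eBayes with trend), which understates changes of low genes. P-values are two-sided and adjusted over all tested genes in each of 7 comparisons, and passed under 0.05. The pipeline was tested on simulated data. Fragment numbers were estimated from the steps between the lowest FPKM values (9 to 31 genes per library, in a range set by hand) and are rough. Lengths and positions came from GENCODE M21, with a length for 95.4% of tested genes, and promoters from RefSeq. The labels do not say what the replicate numbers share, so the main fit did not pair the samples.

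The text names the 10 members, Ahr, Ly6c2 and Abcb1b, up to 4 called genes with the smallest adjusted p per vascular list, and the 5 genes most like the members' mean. Blood cell genes, and Pf4 among them, were added after their values were seen. Members and lists were chosen with earlier results of these data known. Alternatives covered the pseudocount, filters, scaling, prior variance, samples fitted, a replicate block and leaving out each library, and, added after seeing the data, a length and GC correction (splines of 5 degrees of freedom).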

Additional observations from a re-analysis of the deposited data

How the results depend on the processing

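Of the members, 1 (Cldn5) was called in WT CPZ against WT Ctrl with quantile normalization and in a fit to the compared groups only, and leaving out each library gave 0 to 1. AHR CKO CPZ against WT CPZ kept 1 of 3 (Flt1) in a fit to those groups only, 1 (Cldn5, which was not called before) with the length and GC correction, and 0 to 3 with a library left out. AHR CKO Ctrl against WT Ctrl went to 0 with the groups compared only, with the replicate block and with the length and GC correction, and ran from 0 to 2 with a library left out. Averaged over genotypes, cuprizone called 1 with quantile normalization (Tek) and 1 with the length and GC correction (Ly6c1), and AHR CKO averaged over treatments called 1 (Tjp1) with that correction, in place of 3. For cuprizone averaged over genotypes, the corrected median log2 change was -0.09 in the shortest length bin and -0.014 in the longest. A trend with length thus remained in that comparison, and Ly6c1 is the shortest member.

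Over all genes, AHR CKO CPZ against WT CPZ went from 2747 calls to 1070 (groups compared only), 1806 (replicate block) and 801 (length and GC), and to between 777 and 3305 without a library. AHR CKO Ctrl against WT Ctrl went from 851 to 127, 51 and 47 in the same order, and to between 4 and 1428. AHR CKO averaged went from 4630 to 1324 with length and GC. AHR CKO CPZ against AHR CKO Ctrl went from 1403 to 901 at a mean of 5 FPKM or more and to between 840 and 1553. The interaction, with 5, had 1 without a filter, 2 without the trend, 0 with the replicate block, 11 with length and GC, and 0 to 103. The causes were not tested. Same-numbered libraries deviated together in 3 of 18 pairs (correlation over 0.1, range -0.343 to 0.25), and other-numbered libraries in 14 of 36. The replicate block ended the calls of Abcb1a under cuprizone (adjusted p = 0.0556 in limma) and Tjp1 in control tissue (0.0827). Of the 52 calls of named vascular genes, 35 held with the length and GC correction (4 had no length), 41 with the replicate block and 28 without each library in turn. Among the 58 member results with an unadjusted p of 0.05 or more, 3 were called under another setting and the sign changed in 40 of 526. Estimated fragments limit Ocln and Kdr most.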
